A study of Mus musculus with 2 samples.

Results

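Lipid handling in tumor macrophages was described through 10 genes: the receptors Trem2 and Cd36, the lipase Lpl, the fatty acid carriers Fabp4 and Fabp5, the export genes Apoe, Abca1 and Pltp, and Gpnmb and Lgals3, which lipid-loaded macrophages often express. They were chosen by symbol and are 10 of 32285 genes listed in both count matrices, and all 10 were detected in the macrophages of both libraries. The cells came from 4T1 tumors, a mammary carcinoma of BALB/c mice grown in the mammary fat pad. The parental line (4T1P) gives tumors that do not respond to anti-PD1, and 4T1M, obtained from it by mutagenesis and called a clone in the study although the methods describe the treated cells as multiclonal, gives tumors that respond. GR1+ cells (the GR1 antibody binds both Ly6G and Ly6C) were isolated with magnetic beads and profiled in 1 droplet library (10x Genomics) per group. No anti-PD1 or other treatment is named in the sample records of either library. The records state an age of 6 to 8 weeks and 5 mice pooled per sample, whereas the study's legend gives a smaller number of mice. With 1 library per group there is no spread between animals, no test between groups is possible, and every interval below is a 95% interval for counting error alone.

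Macrophages that meet dying cells or lipoproteins take up lipid through surface receptors, break it down in lysosomes, store the surplus in droplets and return cholesterol to apolipoprotein particles. TREM2 senses lipids and lipoproteins and passes the signal on through the adapter TYROBP, CD36 binds fatty acids and oxidized lipoproteins, and LPL cuts triglycerides at the cell surface. FABP4 and FABP5 carry fatty acids inside the cell, while ABCA1, APOE and PLTP load phospholipid and cholesterol onto particles, under control of the LXR nuclear receptors.

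A barcode was kept if it had no fewer than 500 and no more than 5000 genes and no more than 10% of its UMIs from mitochondrial genes, which left 1726 of 2947 barcodes in 4T1P and 3461 of 5004 in 4T1M. Macrophages had S100a8 and S100a9 below 1.5% of UMIs and the sum of C1qa, C1qb, C1qc, Csf1r, Cd68 and Fn1 at 0.3% or more, and numbered 721 and 820 with median depths of 10097 and 9736.5 UMIs. Neutrophils had S100a8 and S100a9 at 1.5% or more and the 3 C1q genes below 0.3%, and numbered 613 and 1702 with median depths of 3057 and 2960 UMIs. Of the other kept cells, 74 and 95 were T or NK-like and 33 and 30 B-like, by 3 or more UMIs of the marker list of that type alone. A further 10 and 37 were high in both S100a8/S100a9 and C1q. The remaining 275 and 777 kept cells are called cells of neither class below. Macrophage genes outside the rule separated the classes, Adgre1 standing at 111 and 110 CPM (UMIs of the gene per 1000000 UMIs of the class in that library) in macrophages and at 3.19 and 5.55 CPM in neutrophils. Ly6g, part of the sorted antigen, was at 0.373 and 1.10 CPM in macrophages and at 308 and 228 CPM in neutrophils. The neutrophil marker list was nevertheless higher in 4T1M macrophages, with a summed level of 617 CPM in 4T1P and 1307 CPM in 4T1M. Most of this sum was S100a8 (215 and 453 CPM) and S100a9 (290 and 620 CPM), which the class rule caps. The list genes outside the rule were higher in 4T1M too, such as Csf3r (28.3 and 56.1 CPM) and G0s2 (30.8 and 84.1 CPM). The part of neutrophil RNA in the values below was not tested. The libraries shared 5 barcodes, 1 of them among the macrophages of each library.

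For the 3 genes with a promoter in the RefSeq table that were most particular to macrophages by level, Apoe, Trem2 and Pltp, the 250 bases before the annotated start are given with the measured gene. They are from GRCm38.p6, 5′ to 3′ on the strand of the gene, with matches to GAGGAA (the core bound by PU.1, the main macrophage lineage factor) and to AGGTCA (the hexamer that many nuclear receptors bind) on either strand in capitals. The windows are chr7:19699189-19699438 (minus strand) for Apoe, chr17:48346151-48346400 (plus strand) for Trem2 and chr2:164857709-164857958 (minus strand) for Pltp.
Apoe: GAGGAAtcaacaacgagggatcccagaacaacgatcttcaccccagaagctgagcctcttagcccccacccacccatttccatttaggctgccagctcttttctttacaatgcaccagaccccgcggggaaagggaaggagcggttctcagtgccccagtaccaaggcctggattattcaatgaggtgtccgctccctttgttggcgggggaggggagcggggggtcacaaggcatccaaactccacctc
Trem2: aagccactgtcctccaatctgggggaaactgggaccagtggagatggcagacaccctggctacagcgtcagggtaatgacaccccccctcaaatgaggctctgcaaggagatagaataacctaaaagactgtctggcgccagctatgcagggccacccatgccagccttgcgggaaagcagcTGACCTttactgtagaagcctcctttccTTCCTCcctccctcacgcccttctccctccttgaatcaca
Pltp: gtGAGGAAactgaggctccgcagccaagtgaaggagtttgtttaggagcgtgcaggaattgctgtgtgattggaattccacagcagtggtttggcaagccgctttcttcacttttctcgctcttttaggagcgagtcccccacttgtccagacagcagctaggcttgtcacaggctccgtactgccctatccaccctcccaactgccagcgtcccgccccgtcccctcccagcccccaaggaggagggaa
The GAGGAA match began 250 bases before the start of Apoe, 40 before that of Trem2 and 248 before that of Pltp, and the AGGTCA match of Trem2 began 68 before its start. GAGGAA was found in 23.3% and AGGTCA in 14% of all 32851 RefSeq promoter windows of this length, so that such matches are common. The table has 9 windows for 7 genes of the set, all but Lpl, Fabp4 and Fabp5, with more than 1 window for Apoe. Of these genes 3 held GAGGAA, 2 AGGTCA (Trem2 and Cd36) and 1 the E-box CACGTG (6.02% of all windows). These counts are by gene, whereas the shares are by window. The starts behind the Cd36 and Lgals3 windows lie 52905 and 6109 bases from the 5′ ends of those genes as given below. None held TGACTCA (AP-1), TCACNCCAC (a sterol response element), or a DR1 or DR4 repeat of AGGTCA. The matches describe letters only and were not tested for binding.

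Apoe (ENSMUSG00000002985, chromosome 7, 19696109 to 19699188, GRCm38) encodes the main apolipoprotein that macrophages secrete and was the 8th most abundant of 9686 macrophage genes with at least 50 UMIs over both libraries. Its level was 8731 CPM in 4T1P and 9651 CPM in 4T1M, a log2 ratio of 0.14 (0.13 to 0.16). It was the sum of many cells: 98.9% and 98.4% of macrophages held a UMI, and the 2 cells with most UMIs gave 2.94% and 1.62% of them.

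Trem2 (ENSMUSG00000023992, chromosome 17, 48346401 to 48354147) stood at 279 CPM in 4T1P and 278 CPM in 4T1M. The log2 ratio of -0.01 had an interval from -0.09 to 0.08, so no difference was detectable at this depth. Of macrophages thinned to 1000 UMIs each, 22.1% (19.1% to 25.3%) held a Trem2 UMI in 4T1P and 19.6% (16.9% to 22.5%) in 4T1M, and the intervals overlap.

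Abca1 (ENSMUSG00000015243, chromosome 4, 53030787 to 53159895), the cholesterol exporter, had 369 CPM in 4T1P and 349 CPM in 4T1M (log2 ratio -0.08, -0.15 to -0.0041). Lgals3 (ENSMUSG00000050335, chromosome 14, 47367751 to 47386160), which encodes a galectin that binds sugars on damaged lysosomes, had 1551 and 1463 CPM (-0.08, -0.12 to -0.05). Fabp5 (ENSMUSG00000027533, chromosome 3, 10012548 to 10016607) had 341 and 379 CPM (0.15, 0.08 to 0.23). The Fabp5 difference went with 2 cells of 4T1M that held 301 and 142 of its 3094 UMIs; without the 2 cells with most Fabp5 UMIs in each library the levels were 319 and 326 CPM (0.03, -0.05 to 0.11).

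Pltp (ENSMUSG00000017754, chromosome 2, 164839518 to 164857711), which encodes the protein that moves phospholipid between lipoproteins, was lower in 4T1M, at 76.1 CPM against 113 CPM in 4T1P. The log2 ratio of -0.57 (-0.72 to -0.42) lay just short of 1.5-fold, which is 0.58 on that scale, and it was -0.59 without the 2 cells with most Pltp UMIs in each library. After thinning, 9.40% (7.35% to 11.8%) of 4T1P macrophages and 5.22% (3.77% to 7.01%) of 4T1M macrophages held a Pltp UMI. Those intervals were apart in this random thinning, but averaged over all possible thinnings the shares were 9.15% (7.09% to 11.5%) and 6.16% (4.54% to 8.02%), with overlapping intervals. Without thinning the shares were 34.3% (30.8% to 37.9%) and 26.3% (23.4% to 29.5%), which do not overlap. With a mitochondrial limit of 5% the log2 ratio was -0.15, still lower in 4T1M but much smaller. The thinned shares then differed by 0.039 percentage points, so a lower share was not seen under that limit.

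The other 4 genes were rare, and their levels rested on few cells. Lpl (ENSMUSG00000015568, chromosome 8, 68880491 to 68907448) had 12.3 CPM in 4T1P and 30.9 CPM in 4T1M (log2 ratio 1.33, 0.99 to 1.68), and Fabp4 (ENSMUSG00000062515, chromosome 3, 10204088 to 10208576) had 2.11 and 12.7 CPM (2.59, 1.84 to 3.43). Cd36 (ENSMUSG00000002944, chromosome 5, 17781690 to 17888801) had 17.4 and 15.4 CPM (-0.17, -0.53 to 0.18), and Gpnmb (ENSMUSG00000029816, chromosome 6, 49036546 to 49070929), a glycoprotein of lysosomes under load, had 5.59 and 6.98 CPM (0.32, -0.27 to 0.92). Of the Gpnmb UMIs, 55.6% in 4T1P and 40.4% in 4T1M lay in 2 cells, and without these the levels were 2.50 and 4.19 CPM, a log2 ratio past 1.5-fold but with an interval that holds 0 (0.74, -0.093 to 1.62).

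Lpl and Fabp4 were thus the genes of the set past 1.5-fold higher in 4T1M (2 of 10), and 0 of 10 were past 1.5-fold lower. Over all 9686 macrophage genes with 50 UMIs, 4.37% were past 1.5-fold higher and 4.43% lower; the median log2 ratio was 0.07 over the 10 genes and -0.03 over all genes. In 4T1M, 2 cells held 80.8% of the Fabp4 UMIs and 59.5% of the Lpl UMIs.

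Of the 104 Fabp4 UMIs in 4T1M macrophages, 73 lay in 1 cell and 11 in the next. The first of these cells also held 26 UMIs of the endothelial marker list, among them 18 of Pecam1 and 4 of Cdh5, had 0 UMIs of Csf1r and 1 of the C1q genes, and met the macrophage rule through 46 UMIs of Fn1. Without the 2 top cells of each library Fabp4 stood at 1.5 and 2.46 CPM, from 12 and 20 UMIs, with a log2 ratio of 0.71 whose interval runs from -0.39 to 1.88. The share of macrophages with a Fabp4 UMI was 1.94% (14 of 721) in 4T1P and 2.20% (18 of 820) in 4T1M.

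Of the 252 Lpl UMIs in 4T1M macrophages, 94 lay in 1 cell and 56 in another, both rich in Fn1 (209 and 136 UMIs) and poor in C1q (1 and 4 UMIs). In 4T1P the 2 top cells held 22 and 13 of 99 UMIs. Without them Lpl stood at 7.98 and 12.6 CPM (0.66, 0.19 to 1.13), still past 1.5-fold but at a lower ratio. With every macrophage weighted equally the ratio was -0.51 in 1 random thinning to 1000 UMIs and 0.11 over all possible thinnings, both short of 1.5-fold higher. Cells with an Lpl UMI made up 3.61% (2.37% to 5.24%) of macrophages in 4T1P and 5.37% (3.93% to 7.14%) in 4T1M, and 1.42% and 1.40% after thinning, so no difference in share was detectable at this depth.

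**Figure D1:**
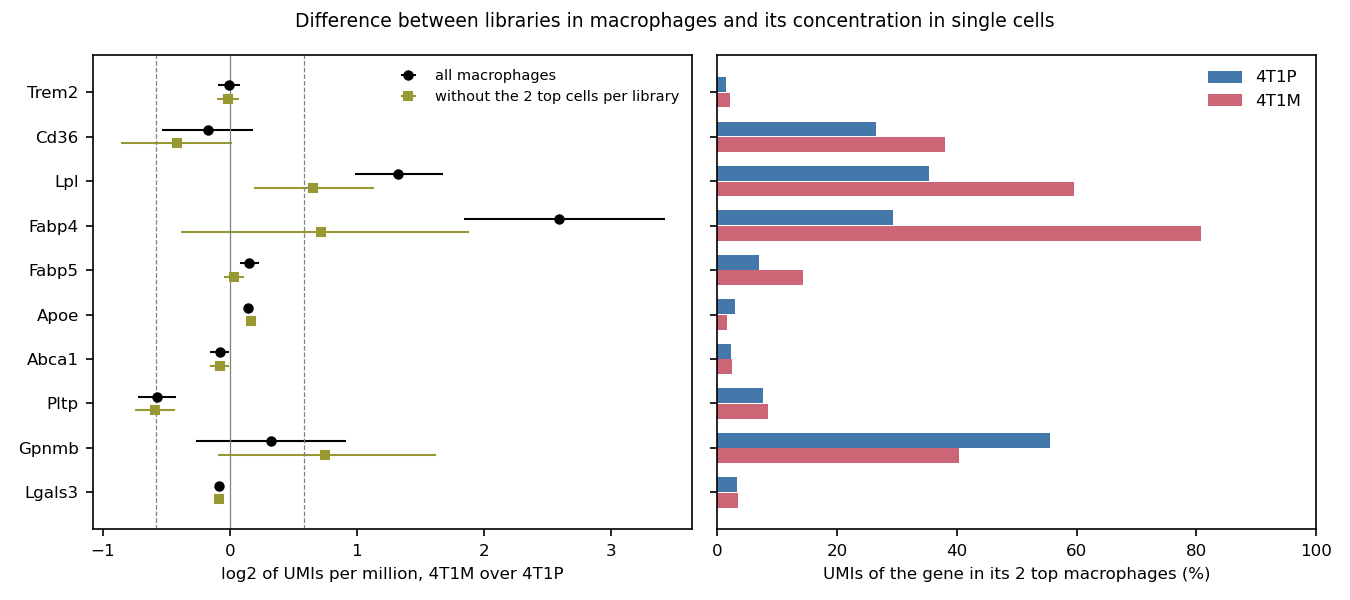
Left, log2 ratio of CPM in macrophages, 4T1M over 4T1P, for all macrophages (circles) and without the 2 cells with most UMIs of the gene in each library (squares), with 95% counting intervals; dashed lines mark 1.5-fold. Right, percent of each gene's macrophage UMIs held by those 2 cells, which reached 80.8% for Fabp4 and 59.5% for Lpl in 4T1M and was 1.51% to 3.40% for Apoe, Trem2, Abca1 and Lgals3.

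To ask where in the macrophages each gene was used, the macrophages of both libraries were clustered on variable genes without the 10 genes of the set, which gave 8 clusters, numbered by size and described here by their leading genes. Cluster 2 was led by C6, Vcam1, Adamdec1, Ccl5 and AW011738, and cluster 3 by Fcrls, Lyl1, Igfbp4, Arsb and Ccnd1. Cluster 4 was led by Inhba, Thbs1, Cxcl3, Plcb1 and Sdc1, cluster 5 by Atp6v0d2, Lonrf3, Mmp12, Tgfb3 and Nos2, and cluster 7 by Lyve1, Fgfr1, Retnla, Cd163 and Ednrb. Cluster 6 was led by the mitotic genes Pbk, Ccna2, Cenpf, Hmmr and Kif20a, and cluster 8 by the neutrophil genes Cxcr2, Chil1, Il1f9, Prok2 and G0s2. Cluster 1, led by AY036118, Mif, Uqcrb, Ndufa7 and Prdx2, held cells of low depth (median 1618.5 UMIs against 5368 to 17015 in the others). Levels over clusters are a description, and clusters share libraries and free RNA.

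The 10 genes did not follow 1 pattern over these clusters. Pltp was concentrated in cluster 7, with 845 CPM over both libraries against 28.6 to 94.2 CPM in the other 7 clusters. Fabp5, Lgals3 and Gpnmb were highest in cluster 5, at 1132, 3444 and 23.1 CPM over both libraries. The Gpnmb level there rests on few cells, 25 of 36 UMIs in 4T1P and 17 of 21 in 4T1M lying in 2 cells of each library. Fabp5 was lowest in cluster 4 in 4T1P (60.4 CPM) but in cluster 6 in 4T1M (73.8 CPM). Apoe was highest in cluster 2 (12840 CPM) and lowest in cluster 4 (3556 CPM), where Lgals3 was at 2364 CPM. Abca1 and Cd36 were high in clusters 5 and 7, Abca1 at 545 and 582 CPM and Cd36 at 51.1 and 59.3 CPM. The Cd36 level of cluster 7 came from 4T1P (74.1 CPM, 37 UMIs in 8 cells), 4T1M having 12.7 CPM there from 2 UMIs in 1 cell. In cluster 5, 30 of 52 Cd36 UMIs in 4T1P and 48 of 74 in 4T1M lay in 2 cells of each library. Trem2 was the most even of the set, its highest and lowest levels (336 CPM in cluster 5, 204 CPM in cluster 4) differing 1.65-fold. Lpl and Fabp4 were highest in cluster 4 (65.5 and 34.2 CPM), which held the cell with 73 Fabp4 UMIs and the cell with 94 Lpl UMIs.

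**Figure D2:**
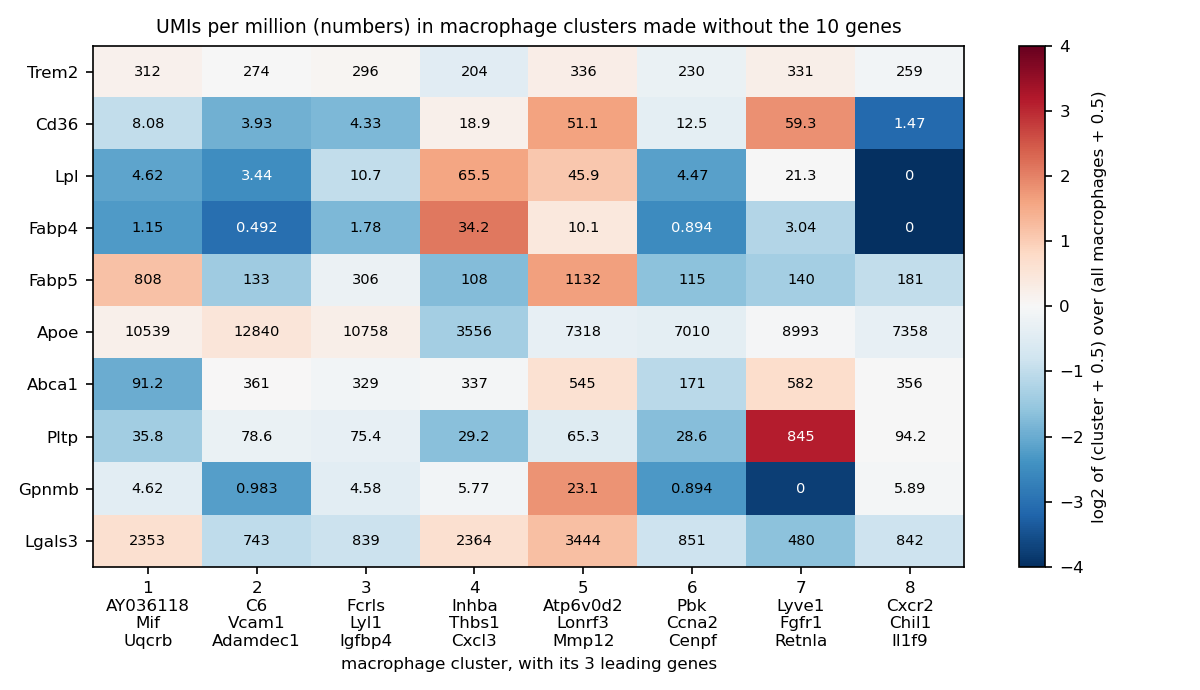
Level of each gene (CPM over both libraries, printed in the cells) in 8 macrophage clusters made without the 10 genes, each cluster labelled with its 3 leading genes; color gives the log2 ratio to all macrophages, a small constant having been added to both. Pltp stands out in cluster 7, Fabp5, Gpnmb (from 57 UMIs, most of them in a few cells) and Lgals3 in cluster 5, and Apoe is lowest in cluster 4.

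Within cluster 7, Pltp was at 875 CPM (437 UMIs, 61 cells) in 4T1P and at 753 CPM (119 UMIs, 26 cells) in 4T1M, a log2 ratio of -0.22 (-0.52 to 0.08). That cluster gave 48.0% of the 910 macrophage Pltp UMIs in 4T1P and 19.2% of the 621 in 4T1M. Outside it Pltp was at 62.7 CPM in 4T1P (473 UMIs) and at 62.7 CPM in 4T1M (502 UMIs), a log2 ratio of 0.00 (-0.18 to 0.18). With the cluster mix of both libraries set equal, the Pltp ratio was -0.13. The others at equal mix were Apoe 0.03, Trem2 0.03, Lgals3 0.10, Abca1 -0.05, Cd36 0.26, Fabp5 0.41, Gpnmb 0.70, Lpl 1.83 and Fabp4 3.07. Gpnmb was thus also past 1.5-fold higher there, and over the clusterings tried the count higher ran from 2 to 4. At equal mix the share of all genes past 1.5-fold was not computed, so these counts have no background. The lower Pltp level in 4T1M macrophages thus went with the smaller contribution of the Lyve1, Retnla and Cd163 cells, but with a coarser clustering into 4 clusters the equal-mix ratio was -0.74. Whether the tumors held fewer such cells or the sort and pooling collected fewer cannot be told apart. Pltp was also lower in 4T1M among the kept cells of neither class, which were not clustered. It was at 66.8 CPM in 4T1P and 35.5 CPM in 4T1M there (-0.91, -1.30 to -0.52).

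The genes whose levels over single macrophages were most like Pltp in both libraries were Folr2 (Pearson r 0.39 in 4T1P and 0.44 in 4T1M), Timp2 (0.39 and 0.42) and Cbr2 (0.52 and 0.39), over 721 and 820 cells and among 8315 genes. Cells of 1 library share depth and free RNA, so these are descriptions. By the same measure Apoe was most like C1qa, C1qb and C1qc (0.53 to 0.60), which were part of the class rule. Trem2 was most like Grn, Apoe and Ctsb (0.23 to 0.27), Fabp5 most like Ftl1, Lgals3 and Fth1 (0.32 to 0.41), and Lgals3 most like Aldoa, Capg and Mmp12 (0.42 to 0.48). Abca1 was most like Malat1, Iqgap1 and Zeb2 (0.48 to 0.55). For Cd36, Lpl, Fabp4 and Gpnmb r was 0.11 to 0.20 for the 3 genes most like each, which is too weak to read in sparse counts.

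Fabp5 and Lgals3 were found together more often than their separate shares give: 97 thinned 4T1P macrophages held both where independence gives 73.1, and 122 in 4T1M where it gives 92.5. Apoe and Lgals3 had a negative r of -0.15 and -0.21. Among the export genes, Abca1 and Pltp had an r of 0.29 and 0.26. They were found together in 21 thinned cells of 4T1P (15.1 if independent) and 12 of 4T1M (9.49). Apoe had an r of 0.08 and -0.02 with Abca1 and of 0.15 and 0.19 with Pltp. Shared control of these genes was not tested.

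Apoe differed between the libraries in opposite directions over the clusters, at 0.39 (0.33 to 0.45) in cluster 1 and 0.57 (0.49 to 0.65) in cluster 7, but -0.28 (-0.34 to -0.21) in cluster 4 and -0.27 (-0.31 to -0.22) in cluster 5. Lgals3 was at 2097 CPM in 4T1P and 2743 CPM in 4T1M in cluster 4 (0.39, 0.31 to 0.46) and at 1142 and 569 CPM in cluster 6 (-1.005, -1.20 to -0.81). The cells of cluster 6 differed in depth, with a median of 4828 UMIs in 4T1P and 10325 in 4T1M, and the part of depth was not tested. Trem2 had intervals apart from 0 in cluster 4 (-0.36, -0.63 to -0.09) and cluster 5 (0.28, 0.08 to 0.48), and in the other 6 clusters its interval held 0. No such difference was tested, and each rests on the cells of 1 library per group.

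Fabp5 showed how few cells can carry a ratio. In cluster 3 it was at 175 CPM in 4T1P and 527 CPM in 4T1M, but 443 of the 767 UMIs of 4T1M lay in 2 cells. In cluster 5, where 71 of 87 and 49 of 64 cells held it, the levels were 1140 and 1121 CPM (-0.03, -0.13 to 0.08). The cluster where Fabp5 was most widely used thus gave the same level in both libraries within counting error. Outside cluster 5 Fabp5 was at 175 and 266 CPM (0.61, 0.50 to 0.71), with those 2 cells of cluster 3 included. It was higher in 4T1M also in clusters 1 (0.63, 0.41 to 0.86), 4 (1.54) and 8 (1.29, 0.13 to 2.77), and lower in clusters 2 (-0.48) and 6 (-1.10). Some of these rest on few cells as well. In cluster 4, 98 of the 177 UMIs of 4T1M lay in 2 cells, and in cluster 6, 60 of the 87 of 4T1P. Cluster 8 had 6 Fabp5 UMIs in 4T1P. In cluster 7 the Fabp5 interval held 0 (-0.38, -1.21 to 0.38).

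**Figure D3:**
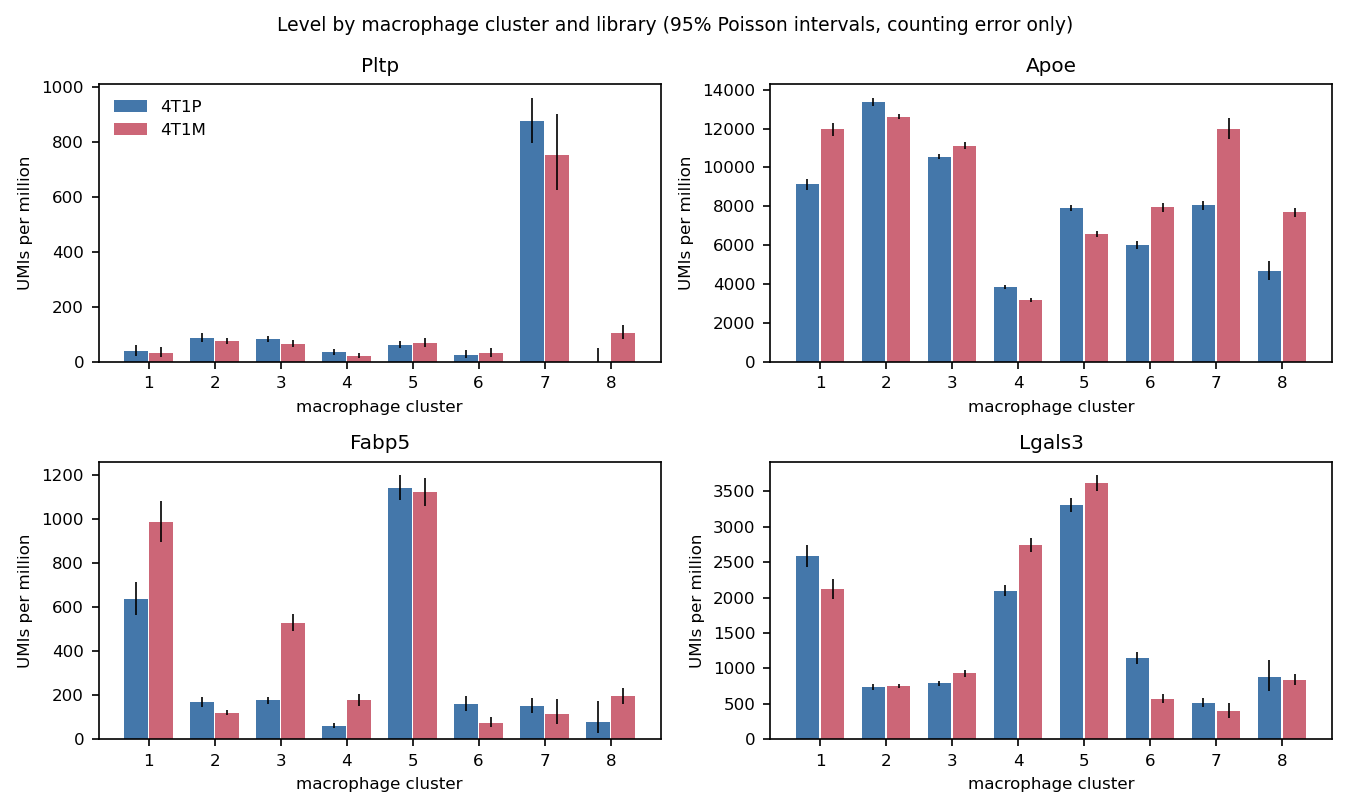
CPM of Pltp, Apoe, Fabp5 and Lgals3 in each macrophage cluster, 4T1P and 4T1M side by side, bars starting at 0 with 95% Poisson intervals. Pltp is high in cluster 7 of both libraries (875 and 753 CPM) and Fabp5 in cluster 5 (1140 and 1121 CPM); the 4T1P bar of Pltp in cluster 8 is 0 of 8 cells.

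Neutrophils are the other large class of the sort, and 7 of the 10 genes fell into 2 groups when macrophages were compared with them. Apoe, Trem2, Lpl and Pltp were 36.1, 29.2, 30.8 and 23.6 times higher in macrophages in 4T1P, and 26.3, 22.1, 34.3 and 31.7 times in 4T1M. The Lpl folds rest on 1 and 6 neutrophil UMIs (log2 intervals 2.44 to 10.3 and 3.96 to 6.56). Scaled with TMM factors from edgeR in place of total counts, all macrophage to neutrophil ratios were lower, for Apoe at a log2 of 4.46 and 3.99 against 5.17 and 4.72, and for Trem2 at 4.15 and 3.74 against 4.87 and 4.46. Their neutrophil level was 2.77% to 4.53% of the macrophage level, close to that of other macrophage genes such as Adgre1 (2.87% and 5.06%) and Ms4a7 (3.11% and 4.63%). The part of free RNA in these levels was not tested; T or NK-like cells, which should lack Apoe, held it at 76.0 and 88.2 CPM and B-like cells at 553 and 512 CPM, against 242 and 367 CPM in neutrophils.

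Lgals3, Abca1 and Fabp5 formed the other group. Their neutrophil level was 51.3% and 58.3% of the macrophage level for Lgals3 (795 and 854 CPM), 43.5% and 55.4% for Abca1 (160 and 193 CPM) and 47.0% and 34.0% for Fabp5 (160 and 129 CPM). These percentages were above the 0% to 10.4% of the 6 other macrophage genes. With TMM factors the log2 macrophage to neutrophil ratio was 0.25 and 0.055 for Lgals3, against 0.96 and 0.78, and 0.49 and 0.13 for Abca1, against 1.20 and 0.85, so that little of the difference was left for these genes. A Lgals3 UMI was found in 40.6% and 43.7% of thinned neutrophils, in 13.5% and 8.51% of thinned T or NK-like cells and in 6.06% and 3.33% of B-like cells. Abca1 was found in 14.5% and 15.4% of thinned neutrophils, but also in 15.2% and 33.3% of the few B-like cells (33 and 30 cells).

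Cd36 was 14.5 and 3.67 times higher in macrophages, from 3 and 28 neutrophil UMIs, and Gpnmb 1.75 and 1.11 times, from 8 and 42. Fabp4 was 1.32 and 2.74 times higher, the latter with the 1 cell described above. Of the 10 genes, 6 were past 2-fold in both libraries, where 47.8% of 10303 genes were, so the count is read against that background. Fabp5 was no longer among the 6 with TMM factors (log2 0.37 and 0.83).

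**Figure D4:**
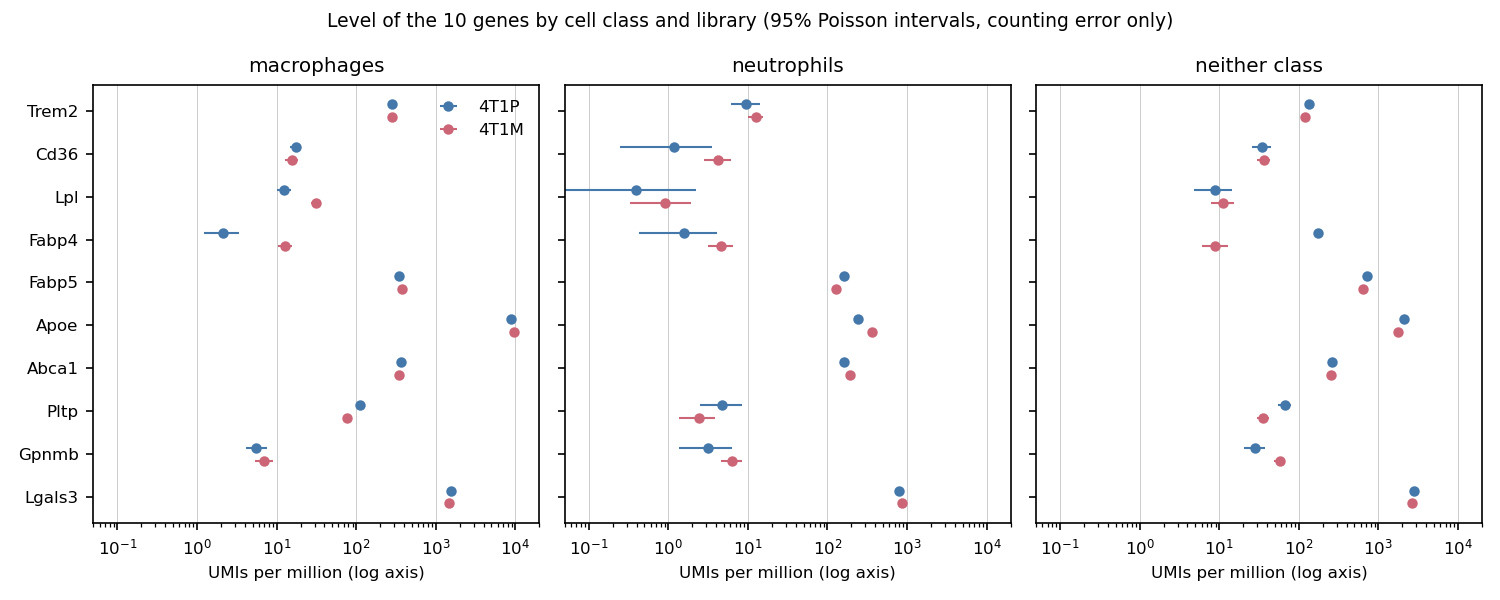
CPM of the 10 genes (log axis) in macrophages, neutrophils and kept cells of neither class, 4T1P and 4T1M, with 95% Poisson intervals. Apoe, Trem2, Pltp and Lpl are far lower in neutrophils than in macrophages, Lgals3, Abca1 and Fabp5 less so, and Fabp4 of 4T1P is high only among cells of neither class (173 CPM).

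In neutrophils, Apoe was at 242 CPM in 4T1P and 367 CPM in 4T1M (log2 ratio 0.60, 0.47 to 0.73). Gpnmb was at 3.19 and 6.30 CPM (0.98, -0.13 to 2.28), and at 0.80 and 4.35 CPM (2.44, 0.46 to 5.56, from 2 and 29 UMIs) without the 2 top neutrophils of each library. They were the 2 of 6 genes with at least 50 neutrophil UMIs that were past 1.5-fold higher, and 0 of 6 were past it lower, where 10.8% of 6538 genes were higher and 2.92% lower. The Apoe ratio was 0.12 when every neutrophil was thinned once to 1000 UMIs and weighted equally, and 0.28 over all possible thinnings. It was 0.38 without cells holding 2 or more UMIs of other cell types' markers. Those are markers of T or NK, B, epithelial, fibroblast, endothelial, adipocyte and platelet types. Macrophage markers are not among them, so macrophage RNA in neutrophils was not a ground for leaving cells out. Some macrophage markers were also higher in 4T1M neutrophils: Csf1r at 33.9 and 59.1 CPM, Aif1 at 23.1 and 39.3 and Fcgr1 at 7.98 and 26.3. Mrc1 (9.18 and 8.40 CPM), Cd68 (155 and 138) and C1qa (66.2 and 69.8, capped by the class rule) were not, or barely. The part of macrophage RNA in the Apoe ratio was not tested. The thinned share of neutrophils with an Apoe UMI was 17.3% (14.4% to 20.5%) and 20.7% (18.8% to 22.7%), with overlapping intervals. Of the other 4, Trem2 had a ratio of 0.40 (-0.27 to 1.12), Abca1 0.27 (0.11 to 0.43), Lgals3 0.10 (0.03 to 0.18) and Fabp5 -0.31 (-0.49 to -0.14). Without the 2 neutrophils with most Fabp5 UMIs in each library, the Fabp5 ratio was -0.09 (-0.28 to 0.10).

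The kept cells of neither class were a mixture, whose leading genes over macrophages included Siglech, a gene of plasmacytoid dendritic cells, and Il1f9, Stfa2l1 and Asprv1, genes of neutrophils. Macrophage markers were present as well. Cd68 was at 334 and 289 CPM there, against 299 and 279 CPM in macrophages. Csf1r was lower, at 217 and 207 against 523 and 541 CPM, and C1qa far lower, at 89.9 and 82.7 against 3230 and 3555 CPM. These 3 are genes of the macrophage rule, which holds their sum low in cells of neither class. Of macrophage markers outside the rule, Adgre1 was at 28.7 and 25.1 against 111 and 110 CPM. Aif1 was at 192 and 195 against 540 and 653 CPM, and Fcgr1 at 164 and 172 against 177 and 252 CPM. The cells of neither class held much of the signal of some genes: 45.9% and 65.5% of all Gpnmb UMIs of kept cells, 26.2% and 34.4% of Fabp5, 23.2% and 33.1% of Lgals3, and 27.6% and 44.2% of Cd36. Gpnmb was at 28.1 and 57.3 CPM there, 5.02 and 8.22 times its macrophage level. The 3 cells with most Gpnmb UMIs of 4T1M (36, 30 and 28 UMIs) lay outside the macrophage class with 0 to 25 C1q UMIs. They held 12, 15 and 15 UMIs of Cd68 and 3, 13 and 5 of Trem2. Their UMIs of the macrophage rule genes were 38, 18 and 44 of 15873, 15665 and 14893, below the 0.3% of the rule. The type of these cells was not tested. Apoe and Trem2 were lower in the cells of neither class than in macrophages, Apoe 4.21 and 5.45 times and Trem2 2.05 and 2.31 times. The part of the class rule in these levels was not tested.

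Fabp4 in the cells of neither class was almost entirely a gene of cells with endothelial transcripts in 4T1P. It was at 173 CPM in 4T1P and 8.96 CPM in 4T1M, and 257 of the 277 UMIs of 4T1P lay in 15 cells with at least 3 UMIs of the endothelial list (Pecam1, Cdh5, Kdr, Emcn, Tie1 and Esam). The 3 cells with most held 89, 61 and 50 Fabp4 UMIs beside 2, 11 and 3 of Cdh5, and 0 of C1q and Csf1r. In both libraries the cell with most Fabp4 UMIs thus carried Cdh5, a gene of endothelial junctions. Adipocyte markers, another known site of Fabp4, were at 0 and 3 UMIs in macrophages.

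The set was placed among 6 lists of related genes in macrophages, chosen with earlier results of these data known. Of 19 measured genes of cholesterol efflux and LXR targets, such as Abcg1, Apoc2 and Npc2, 0 were past 1.5-fold in either direction (median log2 ratio 0.09). Apoc2, an apolipoprotein of the Apoe gene cluster, was at 183 and 218 CPM (0.25, 0.15 to 0.35), and Scd2, a fatty acid desaturase, at 201 and 143 CPM (-0.49, -0.60 to -0.38). Of 24 cholesterol synthesis genes and 23 lysosome genes, 0 were past 1.5-fold, with medians of 0.03 and -0.02.

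Of 28 genes of lipid droplets and fatty acid use, 4 were past 1.5-fold higher in 4T1M and 0 lower (median 0.03), where 4.37% of all genes were higher and 4.43% lower. They were Acsl1, which activates fatty acids, at 32.3 and 60.5 CPM, Dgat2, which makes triglyceride, at 6.09 and 10.3 CPM, Lipe, a lipase, at 7.21 and 11.9 CPM, and the coactivator gene Ppargc1b at 6.96 and 10.8 CPM. The intervals of the log2 ratio reached below 1.5-fold for Dgat2 (0.23 to 1.30), Lipe (0.24 to 1.22) and Ppargc1b (0.13 to 1.14). Over the alternative settings, where the genes counted also differ, the count of this list ran from 0 to 5 higher and from 0 to 1 lower. No share over all genes was computed under those settings. The droplet coat gene Plin2 was at 367 and 329 CPM (-0.16, -0.23 to -0.08). Hilpda, which inhibits lipolysis, was at 728 and 574 CPM (-0.34, -0.40 to -0.29).

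Of 20 genes of TREM2 signalling and lipid-associated macrophages, 1 was past 1.5-fold higher (Itgax, 62.4 and 101 CPM) and 2 lower (Npl, 42.5 and 15.8 CPM, and Igf1, 20.3 and 12.6 CPM), with a median of 0.02. Spp1, of the same list, was at 3181 and 3207 CPM and the TREM2 adapter Tyrobp at 1480 and 1470 CPM, log2 ratios of 0.01 and -0.01. The last list held 12 measured uptake and scavenger receptors, not all of them receptors for lipid, with a median of -0.22. Of these 1 was past 1.5-fold higher (Timd4, 7.46 and 14.2 CPM) and 2 lower (Cd163, 89.1 and 22.9 CPM, and Mrc1, 695 and 369 CPM). Msr1 (-0.43), Stab1 (-0.49), Lrp1 (-0.34) and Scarb2 (0.19) of this list were short of 1.5-fold. Cd163 is also a leading gene of cluster 7, where Pltp was concentrated.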

How the data were processed

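Single-cell RNA-seq was run on GR1+ cells of 2 pooled tumor samples, 1 library per group. The authors deposited a matrix of raw UMI counts per gene and barcode for each library, made with Cell Ranger 4.0.0 per the matrix header and the submitters' processing notes (the study's methods name another version) on GRCm38 (mm10). The libraries held 21855657 (4T1P) and 24303957 (4T1M) UMIs, and the deposited counts were used without correction for free RNA. Cells were sorted into classes as given in the results, each gene's UMIs were added up over the cells of a class, scaled to CPM, and genes with at least 50 UMIs over both libraries were counted. No test was possible with 1 library per group. Intervals are exact Poisson (CPM), exact conditional binomial (ratios) and Clopper-Pearson (shares), and cover counting error only. A ratio past 1.5-fold (2-fold between classes) was counted as a difference in these libraries. Shares were compared after 1 random thinning of every cell to 1000 UMIs, which left out 19 and 34 shallower macrophages. Macrophages were clustered by the Leiden method in scanpy 1.11.5 (Python 3.11.15, scipy 1.17.1). Doublets were kept in the values shown and removed in an alternative. Alternatives used TMM (edgeR 4.0.16), size factors (DESeq2 1.42.0, R 4.3.3), other limits on cells, and other gene floors. The code was tested on simulated data. The 10 genes, the related lists and the rules were chosen with earlier results of these data known. The genes named were the 10, members of the related lists, the 5 leading genes of each macrophage cluster by fold, and for each of the 10 the 3 genes with the highest correlation over macrophages (by the smaller r of the libraries, log of UMIs per 10000, genes detected in at least 5% of macrophages of each library). Marker genes and the leading genes of cells in neither class were named beside these, the latter after their values were seen.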

Additional observations from a re-analysis of the deposited data

Results flagged for a closer look

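Several of the 10 genes had ratios of opposite sign between classes, with counting intervals on opposite sides of 0. None of these differences between classes was tested, since each group is 1 library. Fabp4 had a log2 ratio (4T1M over 4T1P) of 2.59 in macrophages and -4.27 in the cells of neither class, with most UMIs in a few cells that carried endothelial transcripts. Fabp5 had 0.15 in macrophages, -0.31 in neutrophils and -0.18 in the cells of neither class, and its neutrophil ratio was -0.09 without the 2 cells with most UMIs in each library. Apoe had 0.14 in macrophages and -0.23 in the cells of neither class. Abca1 had -0.079 in macrophages and 0.27 in neutrophils, and Lgals3 -0.085 and 0.10.

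A level above that of macrophages in both libraries was seen for 4 genes in the cells of neither class. In CPM of 4T1P and 4T1M, these levels were 34.3 and 36.4 for Cd36, 720 and 636 for Fabp5, 28.1 and 57.3 for Gpnmb, and 2771 and 2670 for Lgals3. How many of all genes stood above macrophages in this way was not computed, so the count of 4 has no background.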

How the results depend on the processing

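In macrophages, the count of genes past 1.5-fold higher in 4T1M was 0 of 6 genes counted with cells weighted equally, against 2 of 10. It was 1 of 9 without cells holding 2 or more UMIs of other types' markers. Genes under the floor of 50 UMIs in a setting were not counted. The share over all genes was computed only for the main settings of the results above, and not at equal cluster mix. The counts under other settings thus have no background to be read against. The count past 1.5-fold lower was 1 instead of 0, always Pltp, with a macrophage floor of 0.6% (-0.61), an S100a8 and S100a9 limit of 0.5% (-0.66), equal weights (-0.83), without cells with other types' markers (-0.70), and, chosen after seeing the data, without the 2 cells with most UMIs of the gene (-0.59). The median over the 6 genes counted with equal weights was -0.073. Equal weights were also averaged over all possible thinnings in place of 1 random draw (chosen after seeing the data). That gave 0 higher and 1 lower of 6 genes counted and a median of -0.13. Of the related lists, 2 genes were past 1.5-fold higher. Lpl was at 0.11 and Fabp4 at 2.84, both being under the floor and not counted. Lpl was reversed with equal weights (-0.51) and Fabp4 with a floor of 0.6% (-0.21). Fabp4 in 4T1M macrophages over neutrophils was reversed with that floor (-1.27), equal weights (-0.30) and without other types' markers (-0.11), and Gpnmb in 4T1P with equal weights (-1.78). The reversals with equal weights rest on few UMIs. In the thinning used for shares, 10 macrophages of 4T1P and 11 of 4T1M held an Lpl UMI. A Gpnmb UMI was held there by 1 macrophage and 1 neutrophil of 4T1P, and a Fabp4 UMI by 2 macrophages and 5 neutrophils of 4T1M.

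In neutrophils, the count higher was 0 of 5 genes counted with a mitochondrial limit of 5% and 0 of 4 with equal weights (also over all thinnings). It was 0 of 5 without cells with other types' markers and 1 of 5 with a depth floor on cells. With a gene floor of 10 UMIs it was 4 of 9, and with 1 UMI in each library 5 of 10, against 2 of 6. The count lower was 1 under both gene floors. As in macrophages, the counts under these 2 floors and the other alternatives have no share over all genes to be read against. The genes they add past 1.5-fold rest on few 4T1P neutrophil UMIs (Cd36 3, Fabp4 4, Lpl 1 and Pltp 12). Pltp was the 1 gene of the 10 with a lower share and intervals apart, also without thinning and with thinning to a greater depth. That count was 0 in a second random thinning and over all thinnings (both chosen after seeing the data), with a mitochondrial limit of 5% and with a floor of 0.6%. How many of all genes had shares with intervals apart was not computed. Pltp was also the 1 gene of the 10 past 1.5-fold lower with equal cluster mix at resolution 0.3 (-0.74), a count without a share over all genes as well. The count past 2-fold between classes was 5 with TMM or DESeq2 factors. The cause of these shifts was not tested.

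No paired analysis was possible because each group is 1 library, and no replicate was left out for the same reason. Rare genes (Gpnmb, Fabp4, Lpl, Cd36) were limited by depth, and free RNA was not corrected.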

Other observations

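Barcodes outside the limits on cells were not used above. Among barcodes with over 5000 genes (133 in 4T1P and 48 in 4T1M), Pltp was at 24.9 and 14.3 CPM and Lpl at 12.8 and 3.07 CPM. Among barcodes over 10% mitochondrial UMIs (775 and 903), Pltp was at 43.8 and 15.9 CPM. Among barcodes under 500 genes (313 and 592), Pltp was at 22.6 and 30.2 CPM, from 6 and 14 UMIs. Pltp thus stood lower in 4T1M in 2 of these 3 sets, while Lpl in barcodes with over 5000 genes went against its ratio in macrophages. These sets hold cells of all classes, and the values were not tested.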
